A study of Danio rerio with 6 samples.

Results

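Mitochondrial ribosomal protein genes (named mrpl after the large subunit or mrps after the small one) encode the proteins of the mitoribosome, the ribosome inside mitochondria. Subunits are taken below from the gene symbols alone. They are nuclear genes: the proteins are made in the cytosol, imported, and assembled on ribosomal RNA made from mitochondrial DNA. The mitoribosome translates the few mRNAs of the mitochondrial genome, which encode core subunits of the respiratory chain and of ATP synthase. Some of its proteins are counterparts of bacterial ribosomal proteins, and others occur only in mitochondrial ribosomes. The roles given below were worked out in bacteria or in mammalian cells. Müller glia (MG) are the glial cells from which the zebrafish retina regenerates, and Myc proteins are transcription factors known for raising the expression of genes of ribosomes and protein synthesis.

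The genes described here are the 42 mitochondrial ribosomal protein genes, 27 mrpl and 15 mrps, that the study lists for its mycb experiment among genes induced by injury in MG, out of 23510 genes counted. The study's title for the list also names regulation by mycb and mych, and whether the mutant libraries played a part in the listing was not examined. A further 33 genes with mrpl or mrps symbols were counted and are not on that list, which makes a family of 75. The 42 were thus selected on their measured counts, for being higher in injured than in uninjured WT MG in these same libraries. Their injury values and calls therefore describe the choice, and no conclusion is drawn from a test of them. All 42 passed the filter on low counts, with 281 to 3646 reads in each library. In the tests below they were part of all 20329 genes that passed.

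The comparison used 6 RNAseq libraries of adult zebrafish, 2 per group. The groups were MG of homozygous mycb mutants at 2 days after needle poke injury (mycb-/- 2 dpi), WT MG at the same time after injury (WT 2 dpi) and MG of uninjured WT retinas. All fish carried gfap:GFP, in which a glial promoter drives GFP, and GFP+ cells were sorted from pooled retinas. The mutation is an indel that shifts the reading frame in a single germline line, and there was no uninjured mutant group. The treatment label of both WT 2 dpi samples reads none, against their titles, which were followed. Libraries held 47088844 to 64353562 counts. Over all genes tested together, counting error was small beside the spread between libraries, which need not hold for each gene. Whether the 2 libraries of a group came from separate fish or separate sorts is not given in the labels, so p-values measure only the spread between these samples. The table used to name genes holds no identifier for mycb, which was therefore not examined.

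The sorted cells carried MG markers, but the marker levels differed between groups. Of the MG markers chosen, gfap, apoeb, sox2 and rlbp1a matched a single identifier each, and their summed level was 2687 and 3560 CPM (counts relative to library size, scaled by the TMM method) in mycb-/- 2 dpi, against 12234 and 11336 CPM in WT 2 dpi and 4116 and 3413 CPM in uninjured WT. All 4 of these MG markers were called lower in the mutant than in WT 2 dpi. Photoreceptor markers went the other way, again counting only those chosen that matched a single identifier. The 7 cone markers summed to 61296 to 63239 CPM in mycb-/- 2 dpi, against 23079 to 23254 CPM in WT 2 dpi and 38051 to 50368 CPM in uninjured WT, and all 7 were called higher in the mutant than in WT 2 dpi. The 4 rod markers summed to 1650 to 1755 CPM in mycb-/- 2 dpi, against 180 to 296 CPM in WT 2 dpi and 2107 to 3368 CPM in uninjured WT, and all 4 were called higher in the mutant than in WT 2 dpi. Of the leukocyte markers, lcp1 was called higher in the mutant than in WT 2 dpi, and cd74a and ptprc were not, with ptprc at 3.32 to 5.02 CPM in mycb-/- 2 dpi, against 2.15 to 2.54 CPM in WT 2 dpi and 1.38 to 1.86 CPM in uninjured WT. The bipolar cell marker vsx1 had 28.1 and 29.3 CPM in mycb-/- 2 dpi, against 30.0 and 27.5 CPM in WT 2 dpi and 73.8 and 78.0 CPM in uninjured WT. The part of these shifts in the results on mitochondrial ribosomal protein genes was not tested. In such bulk samples fewer cells of a type and less RNA per cell cannot be told apart.

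In injured WT MG the 42 genes together stood well above their uninjured level, and in injured mutant MG they stood in between. Their summed level was 851 and 954 CPM in mycb-/- 2 dpi, 1271 and 1209 CPM in WT 2 dpi, and 562 and 682 CPM in uninjured WT. The groups did not overlap. The genes were chosen for standing higher in WT 2 dpi than in uninjured WT, so that separation is built into the choice. The place of the mutant between them is partly built in too. The ratio of mean sums was 0.728 for mycb-/- 2 dpi over WT 2 dpi, 1.99 for WT 2 dpi over uninjured WT, and 1.45 for mycb-/- 2 dpi over uninjured WT. Both mrpl and mrps genes showed this order. The mrpl genes summed to 618 ± 67 CPM in mycb-/- 2 dpi, 844 ± 34 CPM in WT 2 dpi and 420 ± 44 CPM in uninjured WT (SD, n = 2 each). The mrps genes summed to 284 ± 6.0 CPM in mycb-/- 2 dpi, 395 ± 9.9 CPM in WT 2 dpi and 202 ± 41 CPM in uninjured WT (SD, n = 2 each).

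**Figure D1:**
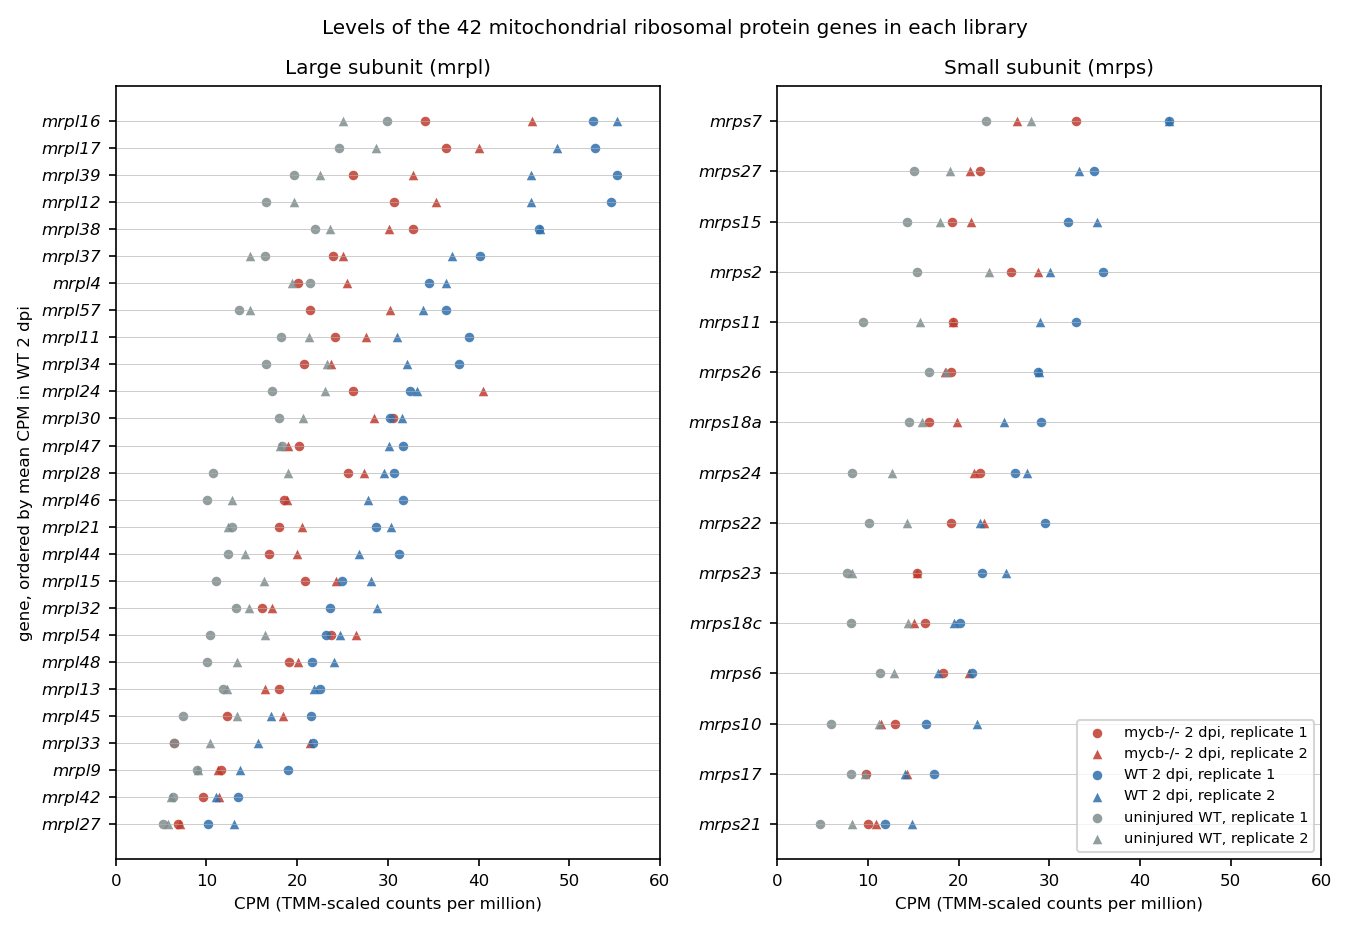
Level of each of the 42 genes in each of the 6 libraries, in CPM on a linear axis, with mrpl genes on the left and mrps genes on the right, ordered by their mean in WT 2 dpi. Red points are mycb-/- 2 dpi, blue points WT 2 dpi and grey points uninjured WT, with replicate 1 as circles and replicate 2 as triangles. For 33 genes both mutant libraries lie below both WT 2 dpi libraries. This was so for 36.3% of all genes tested and for 80.9% of the genes called higher with injury by the rule below.

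Injury in WT MG is the contrast that chose the 42 genes, and it is described first. All 42 had both WT 2 dpi libraries above both uninjured WT libraries, which was so for 35.2% of all genes tested. A gene is called here when its adjusted p reaches 0.05 or less and its log2 fold change exceeds 0.5 in size. By this rule 40 of the 42 were higher in WT 2 dpi, where 19.2% of all genes tested were called higher, a difference that the choice of genes fixes. The log2 fold changes ran over a narrow range, 0.68 to 1.58, with a median of 0.97, and the median of all genes was -0.00. The largest belonged to mrps23, a small subunit protein found only in mitochondria, which had 22.6 and 25.3 CPM in WT 2 dpi, against 7.71 and 8.30 CPM in uninjured WT (log2 fold change 1.58 ± 0.21, SE). Next came mrpl12, the counterpart of the bacterial L7/L12 protein of the stalk where translation factors bind. It had 54.6 and 45.8 CPM in WT 2 dpi, against 16.6 and 19.6 CPM in uninjured WT (1.47 ± 0.20). The mitochondria-specific mrpl46 had 31.6 and 27.8 CPM in WT 2 dpi, against 10.1 and 12.8 CPM in uninjured WT (1.38 ± 0.21). Its neighbour on chromosome 7 in the RefSeq gene order is mrps11, which encodes a protein of the small subunit platform and had a log2 fold change of 1.29 ± 0.26. The counterpart of bacterial S3, mrps24, followed with 1.36 ± 0.24, and the mitochondria-specific mrpl57 with 1.31 ± 0.22.

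At the lower end of the range stood mrpl30, the counterpart of bacterial L30, with 30.3 and 31.6 CPM in WT 2 dpi, against 18.0 and 20.6 CPM in uninjured WT (log2 fold change 0.68 ± 0.19). The others were mrps6 (0.70 ± 0.22), mrpl24 (0.70 ± 0.25), mrps26 (0.70 ± 0.19) and mrps7 (0.76 ± 0.20), the last of which encodes the counterpart of a bacterial protein near the decoding site. Just outside the list, the family genes with the largest changes among those listed only for the mych experiment were mrpl10, whose protein holds the stalk, at 0.81 ± 0.33, and mrps5 at 0.61 ± 0.24. So the values of genes inside and outside the list overlap at its edge. The 2 listed genes that were not called were mrpl33 and mrpl45. The small large-subunit protein gene mrpl33 had 21.8 and 15.7 CPM in WT 2 dpi, against 6.47 and 10.4 CPM in uninjured WT. The gene mrpl45, whose protein sits near the inner membrane in mammals, had 21.5 and 17.1 CPM in WT 2 dpi, against 7.46 and 13.3 CPM in uninjured WT. In both genes the libraries of a group stood far apart. The count of 40 fell without single libraries, among them WT 2 dpi replicate 1 and uninjured WT replicate 1, and so did the share of all genes called higher. The sign was positive for all 42 genes under each scaling tried.

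The mycb mutant was compared with WT at 2 dpi to ask how far these genes depend on mycb after injury. Of the 42, 10 (23.8%) were called lower in mycb-/- 2 dpi and 0 higher (0 also at an unadjusted p under 0.05 and with DESeq2), where 12.2% of all genes tested were called lower and 8.21% higher. The WT 2 dpi libraries that chose the 42 genes for being high are also the reference here, so a lower value in the mutant is partly built into the choice. Of all 3904 genes called higher with injury, 38.4% were called lower in the mutant, and of the 40 listed genes called higher with injury 10 were. Those 3904 genes rose more with injury, with a median log2 fold change of 1.53 against 0.97 for the 42. Genes with a like rise were not compared, so whether the 42 depend less on mycb than other induced genes was not tested. The estimate was negative for 39 of the 42, and for 33 the higher mutant library was still under the lower WT 2 dpi library. That was so for 36.3% of all genes and for 80.9% of the genes called higher with injury. The median log2 fold change was -0.48, beside -0.13 for all genes tested and -0.70 for all genes called higher with injury.

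The 10 called genes were 0.583 to 0.674 times their WT 2 dpi level, with adjusted p-values of 0.023 to 0.049 by edgeR's quasi-likelihood test, all close to the threshold. The lowest estimate was that of mrpl39, which encodes a large subunit protein without a bacterial counterpart. It had 26.1 and 32.8 CPM in mycb-/- 2 dpi, against 55.3 and 45.8 CPM in WT 2 dpi, with 19.7 and 22.5 CPM in uninjured WT. The mutant libraries were well below the injured WT libraries and somewhat above the uninjured ones (log2 fold change against WT 2 dpi -0.78 ± 0.20, 95% interval -1.23 to -0.33, adjusted p = 0.0229). Among small subunit genes the lowest was mrps15, the counterpart of bacterial S15, which binds ribosomal RNA early in assembly. It had 19.3 and 21.3 CPM in mycb-/- 2 dpi, against 32.1 and 35.3 CPM in WT 2 dpi, with 14.3 and 17.9 CPM in uninjured WT (-0.73 ± 0.20, adjusted p = 0.0308).

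Also called lower were mrpl46, mrpl37 and mrpl38, which encode large subunit proteins specific to mitochondria. The gene mrpl46 had 18.5 and 18.9 CPM in mycb-/- 2 dpi, against the WT 2 dpi values given above (-0.67 ± 0.21, adjusted p = 0.0485). For mrpl37 the values were 23.9 and 25.1 CPM in mycb-/- 2 dpi, against 40.1 and 37.1 CPM in WT 2 dpi and 16.4 and 14.9 CPM in uninjured WT (-0.66 ± 0.18, adjusted p = 0.0319). The protein of mrpl38 resembles phosphatidylethanolamine-binding proteins. It had 32.8 and 30.2 CPM in mycb-/- 2 dpi, against 46.7 and 46.7 CPM in WT 2 dpi and 21.9 and 23.7 CPM in uninjured WT (-0.57 ± 0.17, adjusted p = 0.0448). For these 3 genes the mutant libraries stood between those of the other groups.

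The other large subunit genes called lower were mrpl47, mrpl4 and mrpl21, all with bacterial counterparts. The products of mrpl47 and mrpl4 belong to the tunnel through which the new polypeptide leaves, mrpl4 lining it and mrpl47 at its exit. In mycb-/- 2 dpi mrpl47 had 20.3 and 19.0 CPM, against 31.7 and 30.1 CPM in WT 2 dpi and 18.3 and 18.1 CPM in uninjured WT (-0.65 ± 0.19, adjusted p = 0.0334). The gene mrpl4 had 20.0 and 25.5 CPM in mycb-/- 2 dpi, against 34.6 and 36.4 CPM in WT 2 dpi and 21.4 and 19.5 CPM in uninjured WT (-0.64 ± 0.20, adjusted p = 0.0469). In mutant MG both were at or near the uninjured WT level, and for mrpl4 the ranges of mutant and uninjured libraries overlapped. The gene mrpl21 had 18.0 and 20.5 CPM in mycb-/- 2 dpi, against 28.7 and 30.4 CPM in WT 2 dpi and 12.8 and 12.4 CPM in uninjured WT (-0.62 ± 0.19, adjusted p = 0.0495).

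Of the small subunit genes, mrps27 and mrps26 completed the called set, and both encode proteins without bacterial counterparts. The RNA-binding protein gene mrps27 had 22.4 and 21.3 CPM in mycb-/- 2 dpi, against 34.9 and 33.3 CPM in WT 2 dpi and 15.1 and 19.1 CPM in uninjured WT (-0.64 ± 0.20, adjusted p = 0.0471). For mrps26 the values were 19.2 and 18.5 CPM in mycb-/- 2 dpi, against 28.8 and 28.9 CPM in WT 2 dpi and 16.8 and 18.6 CPM in uninjured WT (-0.61 ± 0.19, adjusted p = 0.0471). The mutant and uninjured libraries of mrps26 overlapped.

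Several genes with estimates as low were not called. The gene mrpl27, the counterpart of a bacterial protein next to the peptidyl transferase centre, had 6.82 and 7.09 CPM in mycb-/- 2 dpi, against 10.1 and 13.1 CPM in WT 2 dpi (-0.74 ± 0.27, adjusted p = 0.0840). Its WT 2 dpi libraries differed more from each other than its mutant libraries. For mrps11 the values were 19.4 and 19.4 CPM in mycb-/- 2 dpi, against 32.9 and 28.9 CPM in WT 2 dpi (-0.67 ± 0.25, adjusted p = 0.0920). In all, 9 genes had adjusted p-values between 0.05 and 0.1, so the split into called and not called cuts through a continuous range of estimates.

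At the other end, mrpl54, mrpl24, mrps6, mrpl30 and mrpl28 had mutant levels close to WT 2 dpi. The mitochondria-specific mrpl54 had 23.7 and 26.5 CPM in mycb-/- 2 dpi, against 23.2 and 24.7 CPM in WT 2 dpi and 10.4 and 16.5 CPM in uninjured WT. The groups at 2 dpi overlapped (0.07 ± 0.24, 95% interval -0.47 to 0.61). The gene mrps6, whose bacterial counterpart binds the small subunit platform, had 18.3 and 21.1 CPM in mycb-/- 2 dpi, against 21.5 and 17.8 CPM in WT 2 dpi (0.01 ± 0.21, interval -0.47 to 0.49). The gene mrpl24, counterpart of a protein that starts large subunit assembly in bacteria, had 26.2 and 40.5 CPM in mycb-/- 2 dpi, against 32.4 and 33.2 CPM in WT 2 dpi (0.02 ± 0.24, interval -0.53 to 0.57). The estimates were -0.07 ± 0.19 for mrpl30 (interval -0.48 to 0.35) and -0.19 ± 0.26 for mrpl28 (interval -0.77 to 0.40). Of these 5 intervals that of mrpl28 alone reached the changes of the 10 called genes, -0.57 to -0.78, and whether the 5 genes differ from the called ones was not tested. The sign of mrpl28 was negative under each scaling tried, while the signs of mrpl54, mrpl24, mrps6 and mrpl30 changed with the scaling. The widest scatter was that of mrpl33, with 6.44 and 21.5 CPM in the mutant libraries, which spanned nearly the whole range of the other groups (-0.43 ± 0.47).

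**Figure D2:**
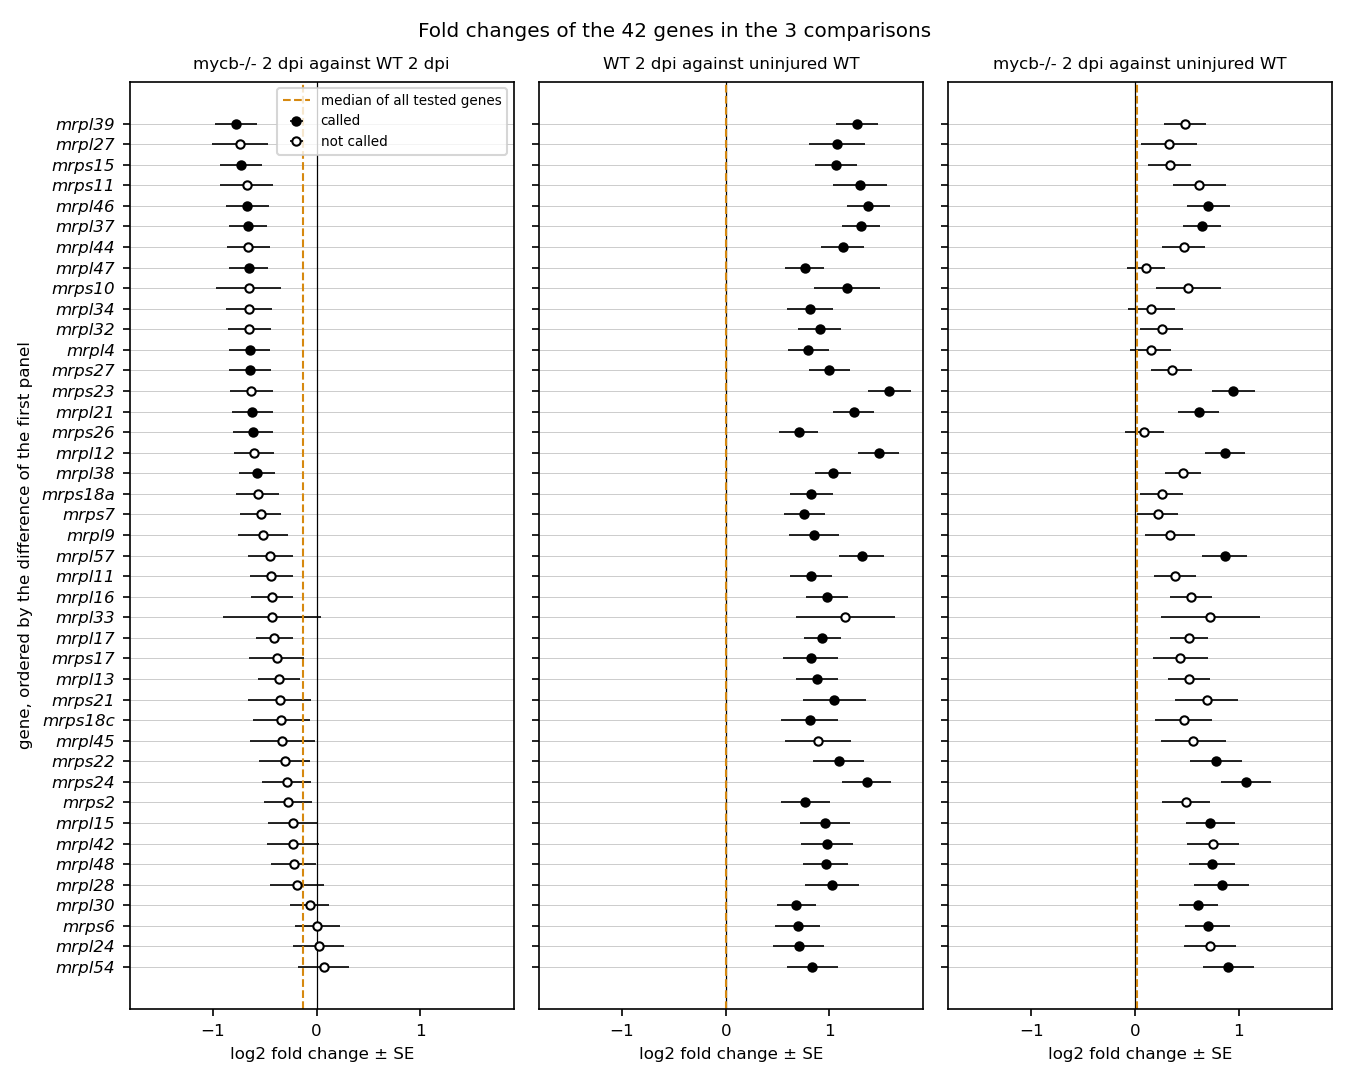
Log2 fold change with its SE for each of the 42 genes in the 3 comparisons, ordered by the first; filled points are called, open points not called, the solid line is 0 and the dashed line is the median of all genes tested. In the first panel 10 genes are called lower in mycb-/- 2 dpi; the middle panel is the contrast that chose the genes and shares the WT 2 dpi libraries with the first and the uninjured WT libraries with the last.

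By origin of the protein, 6 of the 14 mitochondria-specific genes (42.9%) and 4 of the 28 genes with bacterial counterparts (14.3%) were called lower in the mutant. Beside them stand 12.2% of all genes tested and 38.4% of all genes called higher with injury. The median log2 fold changes were -0.59 for mitochondria-specific genes and -0.43 for genes with bacterial counterparts. Among mrpl genes 4 of 10 mitochondria-specific genes and 3 of 17 others were called, and among mrps genes 2 of 4 and 1 of 11. The median change with injury in WT was 1.06 for mitochondria-specific genes and 0.89 for the others. Over the whole family of 75 these medians did not separate in the same way: in the mutant they were -0.32 for mitochondria-specific genes and -0.35 for the others, and with injury 0.77 for both. The order of the medians among the 42, which were selected on injury, was thus not seen over the whole family. The shares called lower kept their order there, at 6 of 28 (21.4%) and 4 of 47 (8.51%). None of the 33 family genes outside the list was called lower, so these are the same calls. These counts are small and the grouping was not tested.

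The count of 10 rested on single libraries and on the scaling. It was 0 without mycb-/- 2 dpi replicate 1, 1 without mycb-/- 2 dpi replicate 2, 0 without WT 2 dpi replicate 1, 1 without WT 2 dpi replicate 2 and 1 without uninjured WT replicate 2. It was 2 with RLE size factors, 17 with library size only and 0 when the uninjured libraries were left out of the fit. The share of all genes called lower moved less in these 3 fits, at 10.5%, 15.0% and 10.1%. Without single libraries it was 6.66% (mycb-/- 2 dpi replicate 1), 5.88% (mycb-/- 2 dpi replicate 2), 5.52% (WT 2 dpi replicate 1), 7.51% (WT 2 dpi replicate 2) and 9.82% (uninjured WT replicate 2), so calls over all genes were also fewer there. The median stayed negative throughout, and relative to the median of all genes it was -0.35 with TMM, -0.35 with RLE factors and -0.37 with library size only. The gene mrpl39 was called in 10 of the 15 alternatives and mrps15 in 8, the 2 highest numbers among the 42. With library size only the split of all calls also moved, to 28.2% higher calls from the 40.2% of the TMM fit, as the median of all genes shifted to -0.25.

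Injured mutant MG were then set against uninjured WT MG. Here 14 of the 42 genes (33.3%) were called higher in mycb-/- 2 dpi and 0 lower (0 also at an unadjusted p under 0.05 and with DESeq2), where 12.2% of all genes were called higher and 13.4% lower, and where 51.5% of all genes called higher with injury in WT were called higher. The uninjured WT libraries also took part in choosing the genes, so higher values are again partly built in. All 42 estimates were positive, with a median of 0.53 and a range of 0.09 to 1.07. For 36 genes both mutant libraries were above both uninjured WT libraries, as for 32.6% of all genes. The largest change was that of mrps24, which had 22.4 and 21.7 CPM in mycb-/- 2 dpi, against 8.30 and 12.7 CPM in uninjured WT (1.07 ± 0.24, adjusted p = 0.00861, edgeR's quasi-likelihood test). It was followed by mrps23 with 15.4 and 15.5 CPM in mycb-/- 2 dpi, against 7.71 and 8.30 CPM in uninjured WT (0.95 ± 0.21, adjusted p = 0.00811), and by mrpl54 (0.90 ± 0.24, adjusted p = 0.0225). In none of these 3 did mutant and uninjured libraries overlap. The smallest changes were those of mrps26 (0.09 ± 0.19), mrpl47 (0.11 ± 0.19) and mrpl4 (0.15 ± 0.20), and the sign of mrps26 and mrpl47 turned negative with library size only.

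Read gene by gene, the comparisons split the 42 into sets. Of the 10 genes called lower than in WT 2 dpi, 3 were also called higher than in uninjured WT (mrpl46, mrpl37 and mrpl21) and 7 were not. Another 11 were called higher than in uninjured WT and not called against WT 2 dpi, and 21 were called in neither mutant comparison. These sets depend on the threshold in each comparison, and whether the genes in them differ was not tested. Shares over all genes are given above for single comparisons only. The sizes of these sets thus have no such share beside them and are a description. The count of 14 was 5 with library size only, where 9.51% of all genes were called higher. It also fell without either mycb-/- 2 dpi library, without either WT 2 dpi library and without uninjured WT replicate 1. In each of these fits the share of all genes called higher fell too.

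The 33 genes of the family that are not on the list moved less with injury, as their absence from an injury list fixes. None was called in any of the comparisons by edgeR's quasi-likelihood test (with DESeq2, 1 was called higher in mycb-/- 2 dpi than in uninjured WT and 0 otherwise), with unadjusted p under 0.05 for 7 of them in WT 2 dpi against uninjured WT, 0 in mycb-/- 2 dpi against WT 2 dpi and 1 in mycb-/- 2 dpi against uninjured WT. All 33 nonetheless had a positive injury estimate, with a median log2 fold change of 0.45. Over the whole family of 75, then, each gene's estimate was higher in WT 2 dpi than in uninjured WT, with a median of 0.77. In the mutant comparison at 2 dpi the 33 had a median of -0.16, close to that of all genes, with 24 negative estimates. For 13 of the 33 both mutant libraries were lower than both WT 2 dpi libraries, an order also found in 36.3% of all genes tested. Over the 75, 63 estimates were negative and the median was -0.34. Among the 23 listed only for the mych experiment, mrps34 and mrpl49, both mitochondria-specific, had the smallest injury changes (0.28 ± 0.23 and 0.04 ± 0.28). The gene mrpl49 had 10.9 and 8.18 CPM in mycb-/- 2 dpi, 7.81 and 10.8 CPM in WT 2 dpi, and 8.17 and 9.99 CPM in uninjured WT, so its 3 groups overlapped.

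Mitoribosome proteins whose genes carry other names gave similar values. The gene dap3 encodes a GTP-binding protein of the small subunit and was named here, like the translation factors and mitochondrial mRNAs below, after its values were seen. It had 21.1 and 21.8 CPM in mycb-/- 2 dpi, against 34.3 and 40.0 CPM in WT 2 dpi and 19.6 and 22.3 CPM in uninjured WT. The mutant libraries lay within the range of the uninjured ones (against WT 2 dpi -0.79 ± 0.19, adjusted p = 0.0169). Of the 5 such genes 4 were called higher with injury, dap3 alone was called lower in the mutant, and all 5 mutant estimates were negative (median -0.52). Among all genes tested, 19.2% were called higher with injury and 12.2% lower in the mutant. Of 10 factors of mitochondrial translation, 4 were called higher with injury (tufm, tsfm, gfm1 and mtif3, which serve elongation and initiation), and none was called in mycb-/- 2 dpi against WT 2 dpi, where 2 had unadjusted p under 0.05 by edgeR and DESeq2 also called 0.

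The 5 aminoacyl-tRNA synthetases of mitochondria, which charge mitochondrial tRNAs, were all called higher with injury, again in a list made from that contrast. Of all genes tested 19.2% were called higher with injury and 12.2% lower in the mutant. Among genes called higher with injury, 38.4% were called lower in the mutant. In the mutant only fars2, the mitochondrial phenylalanyl-tRNA synthetase, was called lower, with 9.22 and 14.1 CPM in mycb-/- 2 dpi, against 24.8 and 18.4 CPM in WT 2 dpi (-0.89 ± 0.28, adjusted p = 0.0473). The estimates were -0.80 ± 0.32 for yars2 and -0.77 ± 0.27 for lars2, neither of them called. For sars2, the seryl-tRNA synthetase, it was 0.02 ± 0.28 (95% interval -0.61 to 0.66).

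Cytosolic translation genes had similar medians in the mutant and larger ones with injury. The median log2 fold change in mycb-/- 2 dpi against WT 2 dpi was -0.52 for the 48 rpl genes and -0.51 for the 35 rps genes of the cytosolic ribosome, and -0.65 for the 21 other aminoacyl-tRNA synthetases. Of these, 16 rpl genes (33.3%), 11 rps genes (31.4%) and 9 synthetases (42.9%) were called lower. The share was 12.2% for all genes tested and 38.4% for all genes called higher with injury. With injury in WT the median of the 42 mitochondrial ribosomal protein genes was 0.97, against 2.00 for rpl genes, 2.13 for rps genes and 1.44 for the other synthetases. All these lists come from the injury contrast, and the difference between lists was not tested.

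**Figure D3:**
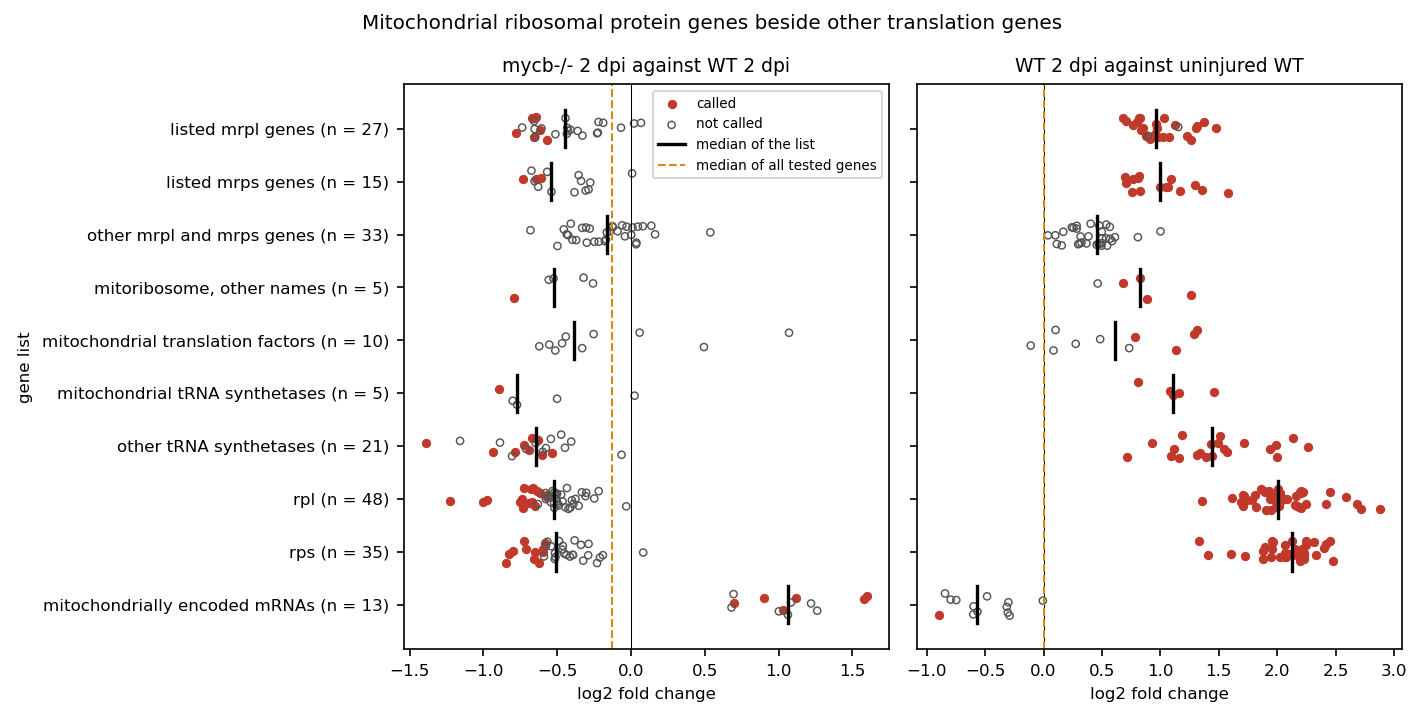
Log2 fold changes of single genes (points; filled red, called; open, not called) by list, with the list's median (black bar), 0 (solid line) and the median of all genes tested (dashed line), for mycb-/- 2 dpi against WT 2 dpi on the left and WT 2 dpi against uninjured WT on the right. The 42 listed mrpl and mrps genes lie left of 0 in the first panel, all but 3, with medians of -0.44 and -0.54, and the mitochondrially encoded mRNAs lie right of it with a median of 1.06.

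In the comparisons with WT 2 dpi, the mRNAs that mitoribosomes translate stood the other way from the genes for mitoribosome proteins. All 13 mRNAs encoded by mitochondrial DNA had a higher estimate in mycb-/- 2 dpi than in WT 2 dpi (median 1.06). Of them 6 were called higher, where 8.21% of all genes tested were. These were mt-co1, mt-co2, mt-co3, mt-nd4, mt-nd5 and mt-nd6, which encode subunits of cytochrome c oxidase and of complex I. The gene mt-co2 had 13623 and 16621 CPM in mycb-/- 2 dpi, against 7167 and 7660 CPM in WT 2 dpi (1.03 ± 0.23, adjusted p = 0.0117). With injury in WT all 13 estimates were below 0 (median -0.57), and mt-co2 was the only one called, where 17.4% of all genes were called lower. Against uninjured WT, 12 of the 13 estimates in mycb-/- 2 dpi were above 0 (median 0.66), the direction of the 42 genes (median 0.53). There 1 mRNA was called higher, where 12.2% of all genes were. For 1 both mutant libraries were above both uninjured WT libraries, as for 32.6% of all genes. As a share of all counts the 13 made up 12.5 and 18.3% in mycb-/- 2 dpi, 8.55 and 9.48% in WT 2 dpi, and 10.6 and 14.4% in uninjured WT. The mutant replicates were far apart: mt-atp6 had 3365 and 16346 CPM in them. Libraries were made from polyadenylated RNA, and cone markers, which mark cells rich in mitochondria, were also higher in the mutant libraries. Their part in this difference was not tested.

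**Figure D4:**
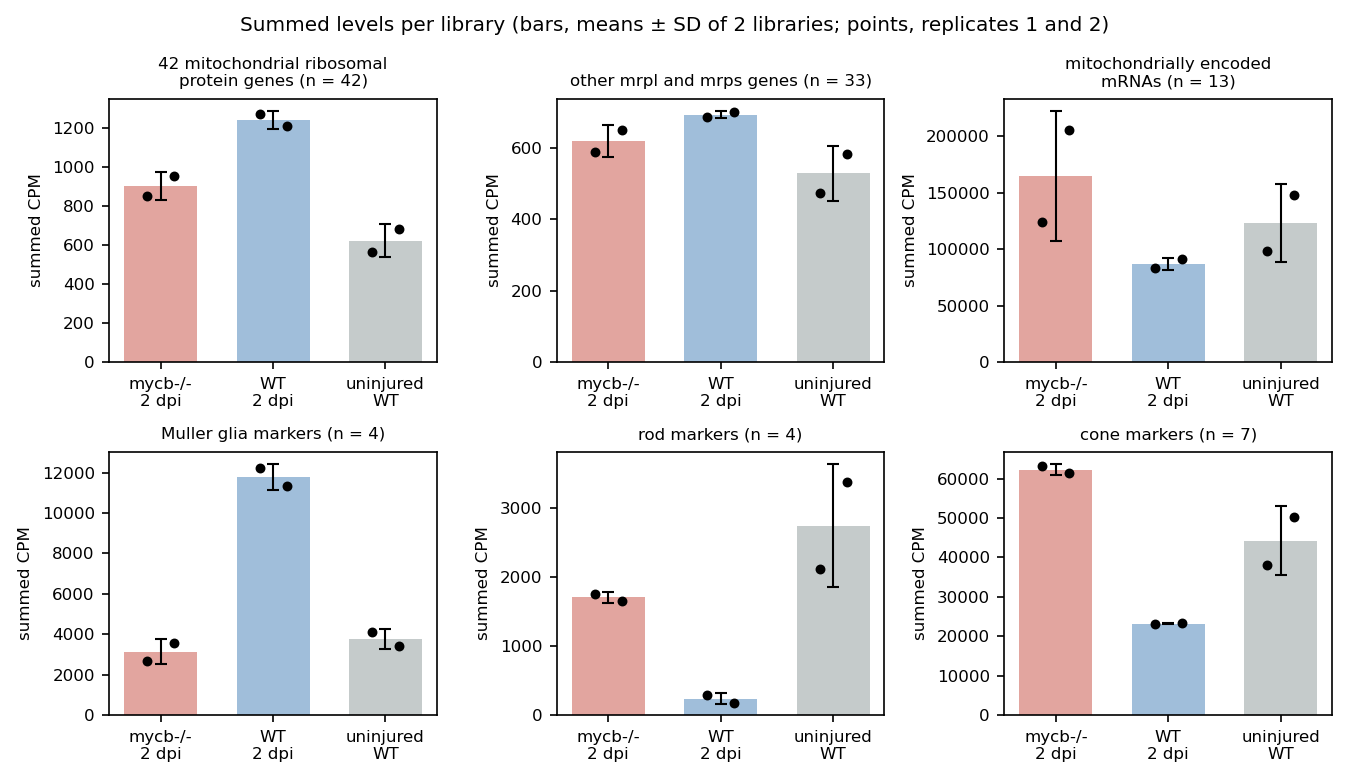
Summed CPM per library of 6 gene lists in mycb-/- 2 dpi, WT 2 dpi and uninjured WT (bars, means; error bars, SD of 2 libraries; points, the libraries). The 42 genes and the MG markers are highest in WT 2 dpi, while mitochondrially encoded mRNAs and rod and cone markers are lowest there.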

How the data were processed

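Polyadenylated RNA of sorted GFP+ MG was sequenced. The authors deposited 1 table of raw counts per gene for 23510 Ensembl identifiers, without normalization. The submitters' processing notes name cutadapt 2.3, STAR 2.7.8a, RSEM 1.3.3, DESeq2 and GRCz11; the strand setting is not given in the sources used here. Of the study's supplementary table only identifiers and symbols were used; its columns of means and fold changes were not. Symbols matched 21982 identifiers. The 42 genes and the lists were chosen with earlier results of these data known.

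Low counts were removed (filterByExpr, minimum count 10; 20329 genes kept) and the rest scaled by TMM. A single edgeR quasi-likelihood fit (version 4.0.16 in R 4.3.3) held all 6 libraries, with a term per group and 3 residual degrees of freedom. P-values were adjusted by the Benjamini-Hochberg method over all genes. Alternatives were RLE factors, library size only, TMM without ribosomal protein genes, no filter, DESeq2 1.42.0, glmTreat, adjusted p alone, compared groups only, a replicate block, and leaving out each library. The fit was also run on simulated data with known changes. Those were larger than the changes of the listed genes called lower in the mutant, so it did not test calls near the threshold. The named genes were those called in the mutant, the 5 largest and 5 smallest changes with injury and in the mutant, the 3 largest and 3 smallest against uninjured WT, listed genes not called with injury, extremes among other family genes, and the mitochondrial synthetases. Promoter sequences were not analysed here. The values of 1 synthetase gene are not reported here.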

Additional observations from a re-analysis of the deposited data

How the results depend on the processing

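With 2 libraries per group, the spread between libraries exceeded counting error over all genes tested together. The 10 genes called lower in mycb-/- 2 dpi than in WT 2 dpi became 2 with RLE size factors, 17 with library size only, 0 with glmTreat against a log2 fold change of 0.5, 0 with the compared groups only, and 0 to 9 with 1 library left out. The median over the 42 was -0.62 with library size only and -0.34 with the compared groups only, and -0.53 to -0.34 with 1 library left out. The 40 called higher with injury became 19 with glmTreat and 21 to 42 with 1 library left out (median 0.84 to 1.20). The 14 called higher in mycb-/- 2 dpi than in uninjured WT became 5 with library size only, 1 with glmTreat, 8 with the compared groups only and 1 to 20 with 1 library left out (median 0.40 to 0.84). No filter on low counts, DESeq2, adjusted p alone and TMM without ribosomal protein genes moved none of these 3 counts by over 1.5 times. Shares of all genes called fell too. With glmTreat 5.74% were called lower in mycb-/- 2 dpi than in WT 2 dpi, and 7.16% higher than in uninjured WT. The share called higher with injury was also lower with glmTreat. With the compared groups only the 2 mutant shares were 10.1% and 11.6%. With 1 library left out the shares fell in most fits. The cause of these changes was not tested, except that leaving out a library or a group leaves fewer samples.

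Of the 33 family genes outside the list, 1 was called higher against uninjured WT with RLE factors; with 1 library left out 0 to 4 were called higher with injury and 0 to 3 against uninjured WT. Of the 62 mitochondrial ribosomal protein genes listed for the mych experiment, 9 were called lower in the mutant (14.5%, beside 12.2% of all genes tested). This count was 2 with RLE factors and 16 with library size only, and it moved with 1 library left out. The share of all genes called lower moved too, to 10.5% with RLE factors and 15.0% with library size only. With 1 library left out that share fell in most fits. The same shares stand beside the lower calls given below for 48 rpl genes, 35 rps genes and 21 other synthetases. Whether these lists moved more than all genes was not tested. Of the 62 genes, the 23 outside the list of 42 had no call in the main fit. The calls of the 62 in that fit are thus calls of the 42, counted again. Their 37 calls with injury became 19 to 40, and their 13 against uninjured WT became 5 with library size only and 1 to 22 with 1 library left out. Lower calls in the mutant were 10 (RLE), 39 (library size only) and 2 to 24 (1 library left out) for rpl genes, 6, 23 and 0 to 15 for rps genes, and 16 (library size only) and 2 to 11 (1 library left out) for the other synthetases. For mitochondrial synthetases the 1 lower call became 0 with RLE factors and 0 to 1 with 1 library left out, the 5 calls with injury became 1 to 5, and the 1 against uninjured WT became 0 to 1.

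Replicate numbers are shared between groups in the labels, but same-numbered libraries did not deviate together (r = -0.01, -0.04 and 0.02 across 20329 genes for the 3 pairs of groups), so no pairing was assumed. With the replicate number as a block, 4 genes were called lower in mycb-/- 2 dpi than in WT 2 dpi, 42 higher with injury and 14 higher than in uninjured WT. The shares of all genes tested were 12.6%, 18.9% and 12.3% in that fit, so calls over all genes were not fewer where the count fell to 4. Promoter motifs were not run.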
